A study of Mus musculus with 11 samples.

Results

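Among 45508 sites of open chromatin in naive mouse CD4 T cells, 633 peaks (1.39%) were more open in cells with an intermediate Nr4a1 reporter signal and no Ly6C than in cells with the lowest signal, and were about as open in cells with the highest signal. The assay was ATAC-seq: a transposase, Tn5, inserts sequencing adapters where DNA is open, and the reads there are counted. The naive cells (CD4+, Foxp3-RFP negative, CD44lo) came from spleen and lymph nodes of untreated mice, and every library shares the C57/BL6 background, the transgene Tg(Nr4a1-EGFP)GY139Gsat, which makes green fluorescent protein (GFP) from Nr4a1 (Nur77) regulatory DNA, and the Foxp3tm1Flv red reporter allele. Population A was Nur77-GFPlo Ly6C+ (2 libraries, mice 1 and 3), population B was Nur77-GFP intermediate Ly6C+, population C was Nur77-GFP intermediate Ly6C-, and population D was Nur77-GFPhi Ly6C- (3 libraries each, mice 1, 2 and 3). The mouse of each library was read from the prefix of its title. The age and sex of the mice are not given in the sources used here. B differs from A by the reporter gate alone, C from B by Ly6C, and D from C by the reporter gate alone.

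The 633 peaks were chosen by the measured values of A, C and D. The deposited values are RPM (reads scaled to a common total, called rppm), and the rule used the mean of each population. A member had a mean of at least 3 rppm in C, a log2((C + 1)/(A + 1)) of at least 0.5, and a log2((D + 1)/(C + 1)) between -0.3 and 0.3. The first and second criteria alone took 1602 peaks (3.52%). Of these, 879 kept rising, with a D over C value of at least 0.3, and 90 were lower again in D, at -0.3 or below. The C over A and D over C values of the members are therefore descriptions. So is any separation of A from C, or overlap of C with D, given for single peaks below. Population B is the only one the rule did not use, but its place relative to A and C is not independent of the choice. Since members were taken where A was low and C was high, the choice also lifts the average B minus A and C minus B differences. By itself it tends to place B between A and C.

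Naive CD4 T cells receive weak, continuous signals through the T cell receptor from self-peptides on MHC class II, often called tonic signals. Nr4a1 is an immediate early gene of that receptor, so its reporter grades cells by recent receptor signalling. Ly6C is a surface protein that naive CD4 T cells with stronger tonic signals tend to lack, while CD5, an inhibitory receptor, is higher on such cells. Open chromatin away from start sites often marks enhancers, and a peak's nearest gene, which is how peaks are named here, need not be the gene it acts on.

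Of the genes in the lists described further on, those with a whole promoter window inside a member peak are shown by their promoter sequence. The C minus B difference was the larger at Tnfrsf4 and Nt5e, and the B minus A difference was the larger at Izumo1r. The test of unequal steps called none of them. The windows run from 250 bases before the start site to 50 bases after it, 5′ to 3′ on the gene's strand, and come from RefSeq on GRCm38.p6, the assembly called mm10. Capitals mark matches, on either strand, to a fixed list of short motifs. Tnfrsf4 encodes the costimulatory receptor OX40 (chr4:156013445-156013744, plus strand). Nt5e encodes CD73, the ectoenzyme that makes adenosine from AMP (chr9:88327359-88327658, plus strand). Izumo1r encodes folate receptor 4, a surface protein of regulatory and anergic CD4 T cells (chr9:14903718-14904017, minus strand).
Tnfrsf4: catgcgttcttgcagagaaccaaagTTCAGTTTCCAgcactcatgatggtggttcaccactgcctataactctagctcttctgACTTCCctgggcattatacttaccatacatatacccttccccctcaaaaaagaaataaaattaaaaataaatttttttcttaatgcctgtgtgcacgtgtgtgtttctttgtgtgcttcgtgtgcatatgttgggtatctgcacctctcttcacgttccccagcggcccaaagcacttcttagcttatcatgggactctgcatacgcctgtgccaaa
Nt5e: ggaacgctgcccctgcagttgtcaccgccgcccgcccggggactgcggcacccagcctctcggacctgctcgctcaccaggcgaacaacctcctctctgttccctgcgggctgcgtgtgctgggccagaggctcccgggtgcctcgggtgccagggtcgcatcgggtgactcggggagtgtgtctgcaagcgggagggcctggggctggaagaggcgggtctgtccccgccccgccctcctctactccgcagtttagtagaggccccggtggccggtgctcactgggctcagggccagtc
Izumo1r: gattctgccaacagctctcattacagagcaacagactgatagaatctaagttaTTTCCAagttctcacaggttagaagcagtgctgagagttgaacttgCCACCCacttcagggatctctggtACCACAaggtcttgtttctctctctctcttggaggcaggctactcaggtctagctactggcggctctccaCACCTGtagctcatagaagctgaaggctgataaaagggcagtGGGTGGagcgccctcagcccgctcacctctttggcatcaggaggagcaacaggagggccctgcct

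The Tnfrsf4 window holds an NFAT match (TGGAAA, in 21.4% of 32851 RefSeq promoter windows of the same length), an overlapping IRF match (GAAANNGAA, 8.56%) and an ETS match (GGAAGT, 23.8%), all on the reverse strand. The Izumo1r window holds an NFAT match, a RUNX match (TGTGGT, 16.8%), an E-box CACCTG match (20.2%) and 2 KLF matches (CCACCC, 31.5%). The Nt5e window, with 71% G and C against 43.7% in Tnfrsf4 and 52.3% in Izumo1r, holds none of the 18 motifs searched. A match is a string of letters and shows no binding. In all, 30 members held a whole promoter window.

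Across the members the median of the population means was 3.61 rppm in A, 4.88 in B, 6.27 in C and 6.49 in D. Over all 45508 peaks the same medians were 9.65, 9.94, 9.96 and 9.98 rppm, so these are peaks of below-median height. B lay between A and C at 608 of 633 members, above A at 622 and below C at 619. Of all 45508 peaks, B lay above A and below C at 11451, above A at 24826 and below C at 22562. The median B minus A difference in log2(mean rppm + 1) was 0.34 (quartiles 0.23 and 0.45), and the median C minus B difference was 0.30 (quartiles 0.20 and 0.43), against 0.01 and 0.00 over all peaks. Thus at the typical member the population that shares the reporter gate with C and the Ly6C gate with A stood near the midpoint of A and C. The choice of low A and high C by itself favours such a place for B. In bulk libraries, more cells with an open site and more cuts per open site cannot be told apart.

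The step at B and the step at C each had a positive median in every mouse that could show it. The libraries of A and C used here also chose the members, so this is not replication. In mice left out of the choice the differences were smaller, as given further on. The median B minus A difference over members was 0.40 in mouse 1 and 0.34 in mouse 3, the mice with a library of A, and was positive at 581 and 587 members. The median C minus B difference was 0.33, 0.30 and 0.31 in mice 1, 2 and 3, positive at 559, 546 and 611 members. B exceeded A in both mice at 541 members (85.5%), against 30.7% of all peaks, and C exceeded B in all 3 mice at 473 members (74.7%), against 16.5% of all peaks. The median D minus C difference was -0.02, 0.02 and 0.12 in mice 1, 2 and 3, so the levelling was closest in mice 1 and 2, while in mouse 3 D was the higher at 451 members.

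**Figure D1:**
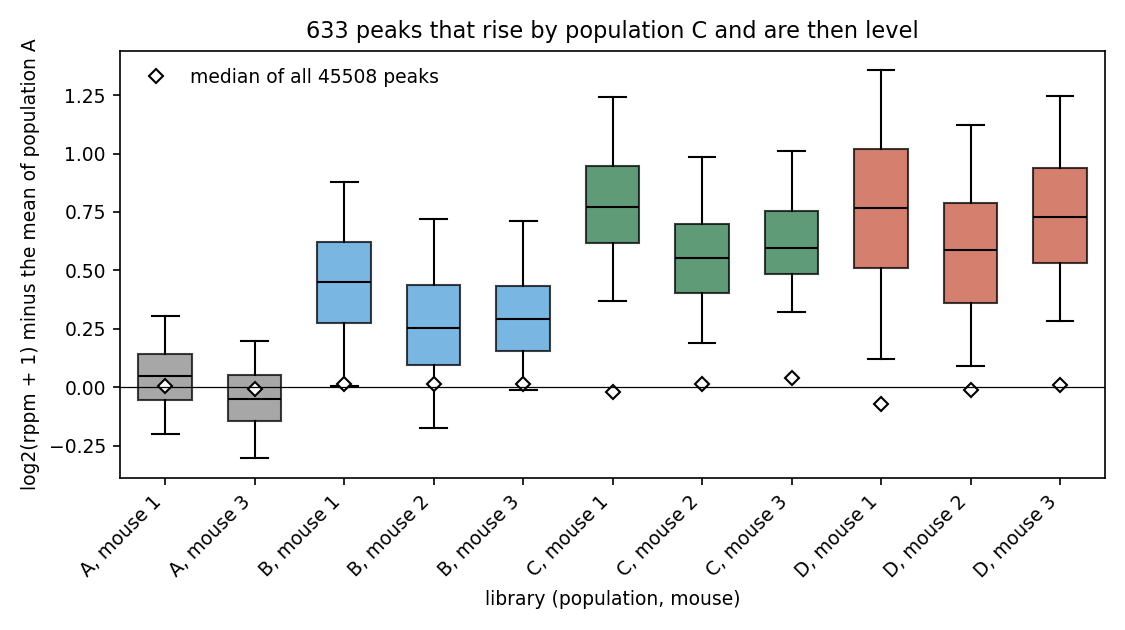
Members' accessibility in each library: boxes give the median and quartiles over 633 peaks of log2(rppm + 1) minus the mean of population A, whiskers the 5th and 95th percentiles, diamonds the median of all 45508 peaks. Member medians spanned 0.25–0.44 for B, 0.54–0.76 for C and 0.58–0.76 for D, while all-peak medians stayed between -0.07 and 0.04.

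Library depth set the precision. The scaling totals recovered from the values ran from 2597176 reads (population D, mouse 1) to 36859230 (D, mouse 3), and 92.5% to 94.7% of those reads lay in listed peaks. A value of 3 rppm thus stands for 7.79 reads at the lowest total and 111 at the highest. In the plot of members by library, mouse 1 was the highest in B, C and D, with medians of 0.44, 0.76 and 0.76, and its libraries of C and D were the shallowest of their populations. The part of depth in that order was not tested. As a check of the sort, all 9 CD4 T cell markers examined had listed peaks, while Ms4a1 and Pax5 among the B cell markers and Csf1r and Lyz2 among the myeloid markers had none. Summed over their 6 peaks, the B cell markers spanned 45.1–51.4 rppm across libraries of A, 46.8–51.8 for B, 44.6–58.0 for C and 35.8–53.1 for D. The 12 peaks of the myeloid and dendritic cell markers summed to 78.1–82.9 rppm for A, 87.2–88.8 for B, 81.7–88.8 for C and 59.7–72.7 for D. B was thus above A for the myeloid and dendritic cell markers, as at the members. D was below the other populations for them, unlike at the members. The CD4 T cell markers summed to 1390–1441 rppm for A, 1446–1497 for B, 1365–1474 for C and 1368–1465 for D. The part of other cell types in the members' values was not tested.

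Single members were tested with limma on log2(rppm + 1) over all 45508 peaks and all 11 libraries. At an adjusted p of 0.05, limma called no member higher in B than in A, where the share over all peaks was 0%, and no member higher in C than in B, against 0.0022% (1 peak, not a member). The smallest adjusted p of a member was 0.287 for B against A (the promoter of A530021J07Rik) and 0.07 for C against B (the promoter of Tnfrsf4). At an unadjusted p under 0.05, limma had 171 members (27.0%) higher in B than in A, against 2.28% of all peaks, and 193 (30.5%) higher in C than in B, against 2.77%. No member was called lower in either comparison by any of the tools used. These shares are raised by the choice of members, as set out above.

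Libraries of 1 mouse resembled each other, and a model with the mouse as a block found more. Limma with the mouse block called 2 members higher in B than in A (0.0461% of all peaks) and 15 higher in C than in B (0.156%). On the whole read numbers recovered from the table, edgeR without the block called 0 members in B against A (0% of all peaks) and 5 in C against B (0.127%), and DESeq2 called 3 of the 310 members it tested (0.0241% of 33156 peaks) and 8 (0.165%). With the mouse block, edgeR called 19 in B against A (0.18%) and 108 in C against B (1.3%). These 19 and 108 included every member called by limma with the block and by DESeq2. Among the 879 peaks that kept rising, edgeR with the block called 49 and 287. The test of whether one step exceeded the other called no member in limma in either direction (0% of all peaks for a larger step at C). At an unadjusted p, 13 members had a larger step at C (0.468% of all peaks) and 11 a larger step at B (0.538%). Differences in shape between the peaks described next are thus differences in their values, which that test did not establish for any single peak.

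By size alone, 271 members had a B minus A difference of at least 0.3 and a C minus B difference under 0.3, so most of their rise lay between A and B. At 200 members the first difference was under 0.3 and the second was not, so most of their rise lay between B and C, the populations that differ in the Ly6C gate. Both differences were at least 0.3 at 109 members and both were under 0.3 at 53. Among the peaks that kept rising these counts were 267, 285, 297 and 30. Both steps were thus large at 17.2% of the members and at 33.8% of the peaks that kept rising, whose median C over A values were 0.61 and 0.70.

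**Figure D2:**
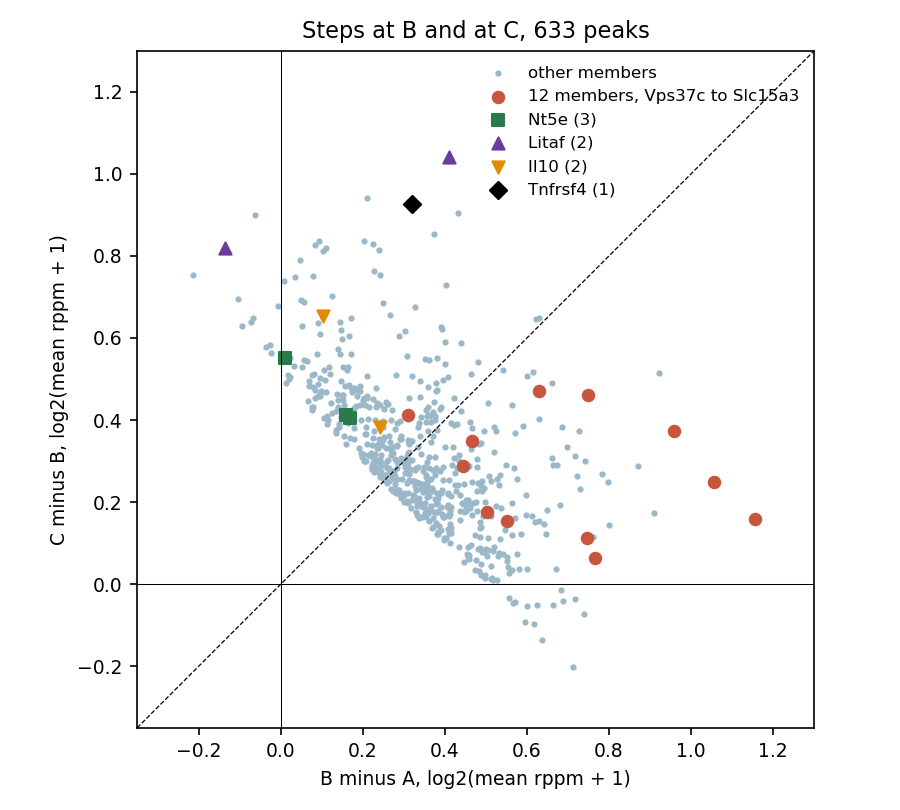
The 633 members by their B minus A difference (horizontal) and C minus B difference (vertical) in log2(mean rppm + 1); the dashed line marks equal steps, and the lower left edge of the cloud is the rule's C over A limit of 0.5. Of the 12 members in the run from Vps37c to Slc15a3, 11 lie below the line, while the members of Nt5e, Litaf and Il10 and the Tnfrsf4 promoter lie above it.

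The run with the most members lay around Cd5, whose product is an inhibitory receptor of T cells, and Cd6, which encodes a related scavenger receptor of T cells. On mm10 chromosome 19, 12 of the 32 peaks within 125 kb (chr19:10715109-10839896) were members, assigned to Vps37c, Cd5, A430093F15Rik, Cd6 and Slc15a3. The B minus A difference was larger than the C minus B difference at 11 of these 12, with a median B minus A difference of 0.69 and a median C minus B difference of 0.27. B exceeded A at all 12 in mouse 1 and in mouse 3, and C exceeded B at 9, 12 and 12 in mice 1, 2 and 3. Neighbouring peaks share a locus and are not independent measurements.

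The member in intron 1 of Cd5 (chr19:10731735-10732468) had 6.20 and 4.63 rppm in A, 15.7, 9.16 and 15 in B, 15.9, 10.4 and 18.6 in C, and 15.4, 12.2 and 17.4 in D. Every library of B, C and D was above both libraries of A, and B, C and D overlapped. The library of mouse 2 was the lowest within each of B, C and D, and A has no library of that mouse. With the mouse block, limma gave a B minus A difference of 1.33 ± 0.15 (SE) at an adjusted p of 0.0058, and edgeR an adjusted p of 2.83e-05, while limma without the block gave 0.826. This peak and the promoter of A530021J07Rik are the 2 members limma called with the block in B against A, and DESeq2 added the Vps37c member.

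The second member in intron 1 of Cd5 (chr19:10732876-10733145) had 1.41 and 1.51 rppm in A, 4.34, 4.46 and 3.55 in B, 5.50, 5.14 and 4.63 in C, and 4.62, 5.38 and 6.59 in D. Here too no library of A reached the lowest of B. Of the 5 peaks assigned to Cd5, 4 were members, the others lying in intron 2 and intron 5. The peak at the Cd5 start site was not one of them, with means of 23.2 ± 0.0092 rppm in A (SD, n = 2) and 27.9 ± 0.81, 26.9 ± 1.5 and 31.1 ± 4.7 in B, C and D (SD, n = 3 each).

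At the 3′ end of Vps37c, a subunit of the endosomal sorting complex ESCRT-I, the member chr19:10715109-10716054 had 5.98 and 4.63 rppm in A, 10.7, 12.4 and 10.7 in B, 13.3, 17.3 and 14.0 in C, and 11.2, 16.9 and 17.7 in D. The 3 libraries of B lay between A and C without overlap with either. With the mouse block its B minus A difference was 0.88 ± 0.17 (SE), at an adjusted p of 0.0737 in limma and 0.0082 in edgeR. In intron 1 of Cd6, 2 members had mean differences of 0.44 and 0.50 between B and A, neither called by any tool. In the window from 110 kb upstream to 30 kb downstream of the Cd5 start, 8 of the 35 peaks kept rising to D. All of these lay within A430093F15Rik, where members lay among them. Peaks in intron 1 of Cd6 that missed the limit of 3 rppm in C also rose to D. Their means went from 2.81 to 5.58 rppm and from 2.25 to 8.04 rppm between C and D.

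**Figure D3:**
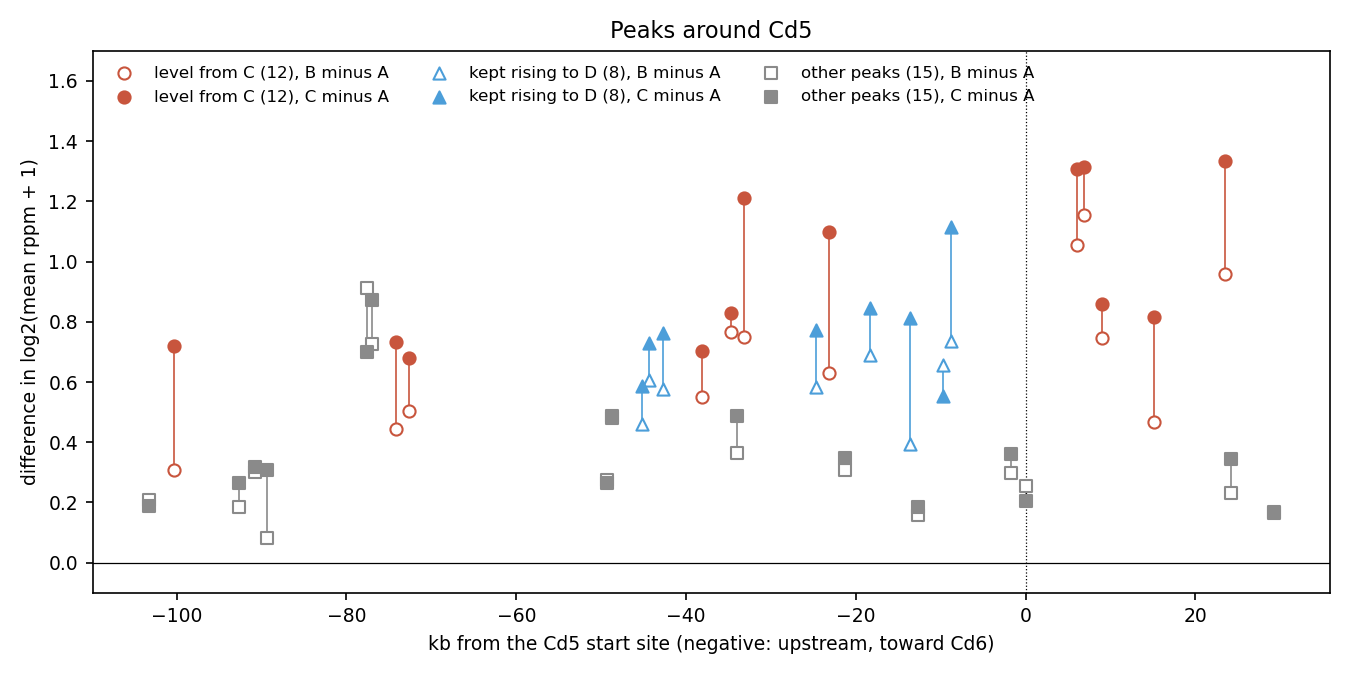
Peaks around Cd5 by distance from its start site (kb, horizontal) and difference in log2(mean rppm + 1) from population A (vertical); open symbols are B minus A, filled symbols C minus A. Most of the distance to the filled symbol is already covered by the open one at the members inside Cd5 and at Vps37c, and the start-site peak at 0 kb shows differences of 0.26 (B) and 0.21 (C).

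Other members also had the larger difference between B and A. The promoter of A530021J07Rik (chr7:83147626-83148781) had 7.61 and 5.24 rppm in A, 13.3, 12.9 and 11.5 in B, 16.1, 15 and 15.6 in C, and 15.4, 17.2 and 17.7 in D. The libraries of A, B and C formed 3 separate ranges. Its B minus A difference was 0.88 ± 0.14 (SE) with the mouse block, at a limma adjusted p of 0.0334. Near Nr4a3, a nuclear receptor of the same family as Nr4a1 and likewise induced by receptor signalling, an intergenic member 80.3 kb from the start site had 4.13 and 3.32 rppm in A, 8.58, 5.95 and 5.79 in B, 10.0, 7.61 and 8.31 in C, and 10.8, 6.98 and 7.73 in D. No library of B, C or D fell to the level of A, and edgeR with the mouse block called it higher in B (adjusted p = 0.026) where limma with the block did not (0.0787). A pair of members assigned to Lysmd2 had B minus A differences of 0.91 and 0.76 and C minus B differences of 0.17 and 0.11, and edgeR with the block called both higher in B (adjusted p = 0.016 and 0.0204).

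The Tnfrsf4 promoter shown above had the smallest adjusted p of the members that limma with the mouse block called higher in C than in B. Its peak had 4.02 and 5.44 rppm in A, 6.24, 6.41 and 5.83 in B, 12.2, 13.4 and 12.3 in C, and 14.2, 14.5 and 16.7 in D. B lay just above A, and no library of C came near B. The C minus B difference was 0.93 ± 0.13 (SE) with the mouse block, at a limma adjusted p of 0.0119. It was also called by edgeR (adjusted p = 0.00803) and by limma when the shallowest library, D of mouse 1, was left out (0.0262). Its B minus A difference was 0.32 ± 0.15 (SE) with the block, at a limma adjusted p of 0.626.

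In intron 1 of Litaf, which encodes a membrane protein of late endosomes and lysosomes, 2 of the 4 assigned peaks were members. The first (chr16:10975996-10976553) had the largest C over A value of all members (1.45), with 1.63 and 0.906 rppm in A, 2.00, 2.29 and 1.76 in B, 4.12, 7.20 and 4.31 in C, and 5.78, 5.24 and 4.45 in D. The second had means of 5.83 ± 0.98 rppm in A (SD, n = 2) and 5.21 ± 0.36, 9.96 ± 1.7 and 9.94 ± 2.4 in B, C and D (SD, n = 3 each). At the first, every library of B was above both of A and below all of C, and at the second, A and B overlapped and lay below every library of C and D. The C minus B differences were 1.01 ± 0.17 and 0.81 ± 0.14 (SE) with the mouse block, at limma adjusted p of 0.0277 and 0.0287.

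Members also lay at both ectonucleotidase genes. All 3 members of Nt5e (CD73), out of 7 assigned peaks, had the larger step at C. The member in its intron 1 (chr9:88329026-88329859) had 15.4 and 13.3 rppm in A, 14.4, 15.9 and 13.2 in B, 22.4, 21.6 and 21.1 in C, and 23.9, 22.3 and 26.1 in D. A and B overlapped fully and stood apart from C and D. The C minus B difference was 0.55 ± 0.10 (SE) with the mouse block, at a limma adjusted p of 0.038. The promoter peak of Nt5e had 11.9 and 11.8 rppm in A, 13.7, 14.7 and 11.9 in B, 17.9, 18.7 and 17.7 in C, and 20.0, 21.1 and 20.3 in D. It was called higher in C than in B by edgeR with the block alone (adjusted p = 0.00775).

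Entpd1 (CD39), which acts before CD73 by breaking ATP and ADP down to AMP, had 1 member in intron 1 (chr19:40678585-40680211), with 11.1 and 10.2 rppm in A, 16.4, 14.4 and 15.4 in B, 22.8, 19.2 and 18.8 in C, and 29.3, 18.3 and 21.8 in D. The populations A, B and C did not overlap, and D overlapped C, though the rule itself took peaks with A below C and D near C. It was called higher in B than in A by edgeR with the block (adjusted p = 0.0459) and not by limma with it (0.136). The difference in shape between Entpd1 and Nt5e was not tested.

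Further members called higher in C than in B by limma with the block lay near Gm29687, Fntb, C530044C16Rik, Epg5 (within Pstpip2), Plscr1, Gm4971, Endod1, Gucy1b1, Cwc27 and Mgll. Their C minus B differences ran from 0.51 ± 0.10 (Cwc27) to 0.90 ± 0.15 (Fntb) on the log2 scale (SE, mouse block), at limma adjusted p of 0.018 to 0.0466. At Fntb, the beta subunit of protein farnesyltransferase, the intron 7 member had 2.07 and 3.22 rppm in A, 2.12, 2.63 and 2.71 in B, 5.30, 5.76 and 5.45 in C, and 4.24, 5.24 and 5.86 in D. B was within the range of A there. The member in intron 1 of Gucy1b1, near its start site and encoding a subunit of soluble guanylyl cyclase, had 8.05 and 7.05 rppm in A, 8.91, 10.5 and 8.06 in B, 18.3, 14.7 and 13.1 in C, and 19.3, 14.0 and 13.2 in D. At Mgll, which encodes monoacylglycerol lipase, both differences were large, 0.73 ± 0.14 for B minus A and 0.63 ± 0.12 for C minus B (SE, mouse block). Without the block, the 5 members edgeR called in C against B were those at Tnfrsf4, Fntb, Litaf, Slc12a8 and Glt28d2. The members called with the block were chosen after their values were seen.

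**Figure D4:**
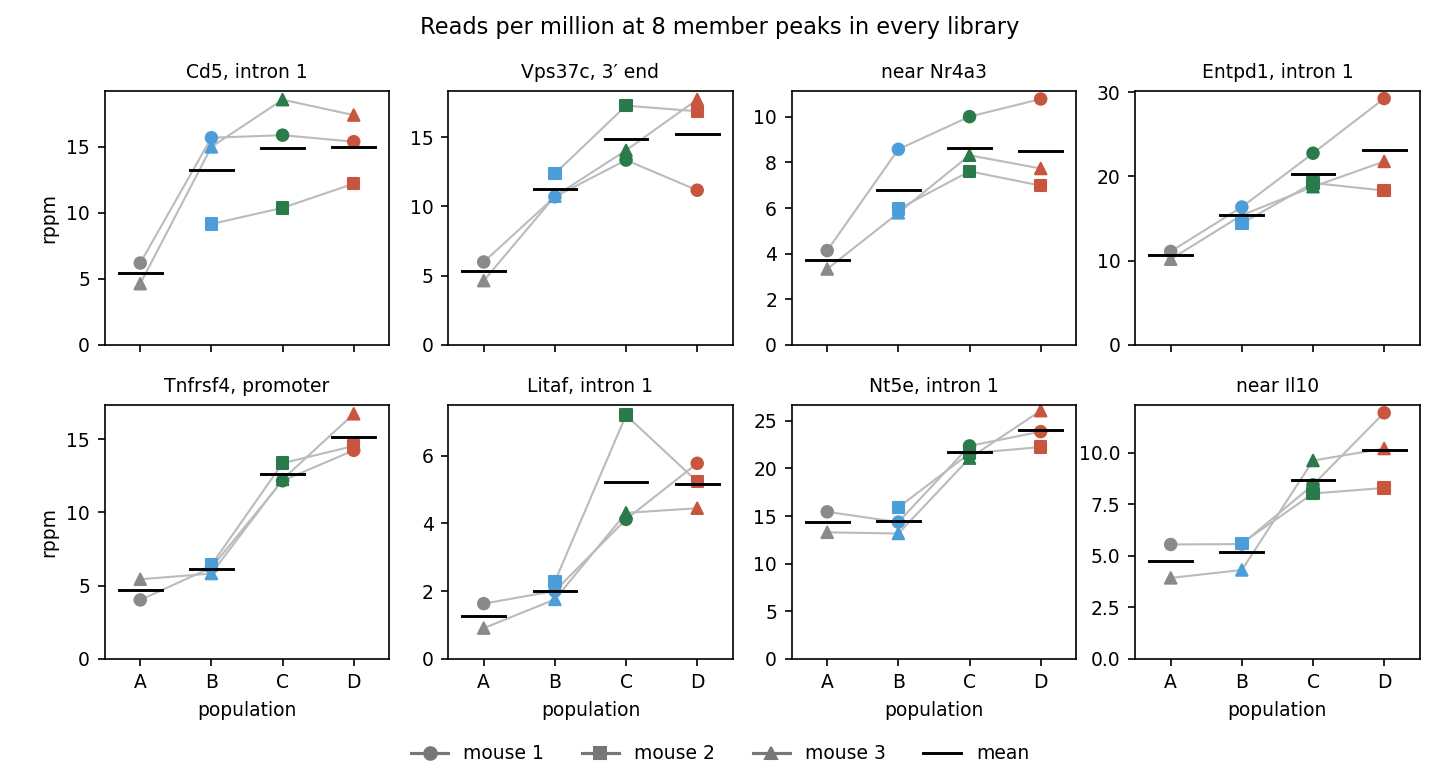
RPM (rppm) at 8 members in each population; grey lines join libraries of 1 mouse (circle mouse 1, square mouse 2, triangle mouse 3; mouse 2 has no library of A) and black bars are means. In the upper row (Cd5, Vps37c, Nr4a3, Entpd1) the B minus A difference is the larger step, and in the lower row (Tnfrsf4, Litaf, Nt5e, Il10) the C minus B difference is; at Tnfrsf4 and Litaf B also lies above A.

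Of the 10 genes with proper symbols whose member peaks had the largest C over A values, which the rule itself used, 6 are named above (Litaf, Vps37c, Cd5, Mgll, Tnfrsf4 and Endod1). The other 4 were in or near Pkp4, Hormad2, Fam171b and Erg. The member in intron 2 of Pkp4 (plakophilin 4, a protein of cell junctions) had 1.63 and 1.41 rppm in A, 4.34, 3.66 and 3.31 in B, 7.26, 5.25 and 4.97 in C, and 5.39, 5.38 and 6.65 in D. The member in intron 4 of Erg, an ETS transcription factor, had means of 1.57 in A, 3.06 in B, 4.70 in C and 5.12 in D. The member in intron 1 of Fam171b had 9.22 rppm in C of mouse 1 and 3.60 and 3.43 in C of mice 2 and 3, so its C over A value of 1.15 rests mainly on mouse 1. Limma called 64 members (10.1%) higher in C than in A, against 0.752% of all peaks, from which nothing follows since that contrast chose them.

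Members stood at the margin of the rule in large part. The C over A value was below 0.6 at 295 of 633 (46.6%) and at least 1 at 36. Just inside that limit were peaks of Rnf145 and Ucp3, and just outside were peaks of Dars and Rxrg, all at 0.50 to 2 decimals. Just inside the limit on D over C were Dnajc22 and Spock2 (both 0.30), and just outside were Snx30 and Hamp2 (both -0.30). Just inside the limit on the C mean were Nhsl1 (3.05 rppm) and Lactbl1 (3.07), and the 1 peak kept out by it alone was that of Abhd17c (2.87).

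The rule was repeated with 1 mouse left out, and that mouse then gave values the choice had not used. Without mouse 1 it took 1111 peaks, among them 397 members (62.7% of the members, 35.7% of the 1111). In mouse 1 these had a median C minus A difference of 0.30, against 0.61 in the mice that chose them, and it was positive at 816 (73.4%), against 47.4% of all peaks of at least 3 rppm in C. The median B minus A difference in mouse 1 was 0.19 and the median C minus B difference 0.12. Without mouse 3 the rule took 781 peaks, among them 408 members (64.5% and 52.2%). In mouse 3 the median C minus A difference was 0.40, against 0.62 in the choosing mice, positive at 721 (92.3%) against 56.0%. The medians there were 0.15 for B minus A and 0.24 for C minus B. So the direction carried over to the unused mouse, with a smaller difference than in the mice that did the choosing.

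Levelling carried over less evenly. In mouse 3 the peaks chosen without it had a median D minus C difference of 0.17, positive at 74.5%, against 42.7% of all peaks of at least 3 rppm in C. In mouse 1 the peaks chosen without it had a median D minus C difference of 0.07, positive at 55.4%, against 44.6%. In both mice D was thus on the higher side at more of the chosen peaks than at peaks in general.

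The members lay away from start sites. Only 41 (6.48%) were within 1 kb of one, against 26.8% of all peaks and 7.39% of the peaks that kept rising. By the deposited annotation 314 (49.6%) were intronic, against 41.2% of all peaks, and 246 (38.9%) intergenic, against 32.3%. Of the intronic members 33.1% were in a first intron, against 45.5% of all intronic peaks. The median distance to the nearest start site was 25.0 kb, against 9.59 kb over all peaks and 26.6 kb among the peaks that kept rising. The members and the peaks that kept rising had similar shares in these measures, and neither difference was tested.

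**Figure D5:**
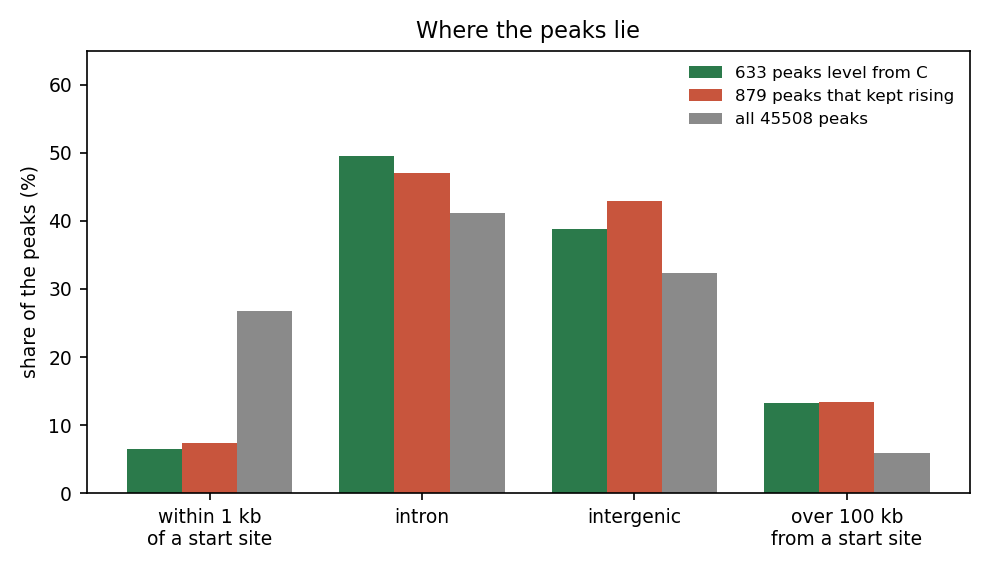
Share (%) of the 633 members, the 879 peaks that kept rising and all 45508 peaks that lie within 1 kb of a start site, in an intron, between genes, or over 100 kb from a start site; a peak can fall in several of these classes. Members and peaks that kept rising are close in each class (6.48% and 7.39% within 1 kb), and both differ from all peaks (26.8%).

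The 41 members near start sites did not all step at the same population. The step at C was the larger at 26 of them and at 266 of the 592 members farther away. The median B minus A difference was 0.27 near start sites and 0.34 farther away, and the median C minus B difference 0.32 and 0.29. Limma with the mouse block called 1 of the 41 higher in B than in A and 3 higher in C than in B. Among the 592 farther away it called 1 and 12, and over all peaks 0.0461% and 0.156%.

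Many members lay beside one another. The next peak along the chromosome was also a member for 100 of 633 (15.8%), while 2.71% of all peaks adjoined a member. A peak that kept rising adjoined 92 members (14.5%), against 3.72% of all peaks. Beside the Cd5 run, 4 members of 7 peaks lay in 73.0 kb near Klhl25, an adaptor of a ubiquitin ligase, and 3 of 3 peaks lay in 3.85 kb near Apoa1. The members had 539 nearest genes, of which 473 had 1 member, 49 had 2 and 17 had 3 or more. Gm17746 and Gm29687 had the most, 6 each, and among genes with proper symbols Klhl25 had the most, 5 of 28 assigned peaks, with C minus B differences of 0.31 to 0.75 and B minus A differences of 0.04 to 0.60. Zfp608 had 4 of 21, with B minus A differences of 0.27 to 0.55.

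Over 15 lists, 35 of 2284 peaks near 261 genes were members (1.53%), close to the 1.39% of all peaks. The list of negative regulators of T cell activation held 16 members among 286 peaks (5.59%), near 8 genes: Cd5 (4 members), Nt5e (3), Ubash3b (3), Cd6 (2), and Cd200, Ctla4, Entpd1 and Izumo1r (1 each). Another 19 of the 286 peaks kept rising, where the share over all peaks was 1.93%. The high share in this list is thus not particular to peaks that level off. In the whole list, limma with the mouse block called 1 peak higher in B than in A and 2 higher in C than in B. Of these, 1 and 1 were members, and none was called lower. Over all peaks it called 0.0461% and 0.156% higher. The list's median B minus A and C minus B differences were 0.08 and 0.04, against 0.01 and 0.00 over all peaks. Lists and members were chosen with results of these data known.

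Members of that list not yet given include a peak in intron 1 of Ubash3b, which encodes a phosphatase that dampens receptor signalling. It had 7.51 and 7.65 rppm in A, 11.4, 9.96 and 13.4 in B, 11.2, 9.87 and 15.4 in C, and 9.24, 8.58 and 12.2 in D. A lay below every other library, and edgeR with the mouse block called it higher in B (adjusted p = 0.0223), limma with it not (0.128). The start-site peak of Izumo1r, whose promoter is shown above, had 12.0 and 14.0 rppm in A, 21.2, 15.3 and 17.7 in B, 17.9, 18.2 and 20.3 in C, and 20.0, 23.4 and 25.1 in D. Its B minus A difference of 0.45 made up nearly all of its C minus A difference of 0.50, and no tool called it. An intergenic member 51.2 kb from Ctla4, the inhibitory receptor that competes with CD28, had means of 3.15, 3.56, 4.89 and 5.25 rppm in A, B, C and D, also with no call.

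The list of regulatory T cell genes held 4 members among 91 peaks (4.40%), near Ctla4, Entpd1 and Il10 (2), and 4 peaks that kept rising. Il10 encodes an anti-inflammatory cytokine, and both of its assigned peaks, 26.0 and 13.6 kb from the start site, were members. The first had 5.55 and 3.93 rppm in A, 5.57, 5.61 and 4.31 in B, 8.44, 8.02 and 9.62 in C, and 11.9, 8.29 and 10.2 in D. A and B overlapped and lay below C and D, and edgeR with the mouse block called it higher in C than in B (adjusted p = 0.000961), limma with it not (0.108). Peaks of the markers Foxp3, Il2ra and Ikzf2, of which none was a member, had sums of 257–260 rppm for A, 244–251 for B, 231–265 for C and 274–306 for D. The highest of these sums were in D.

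Follicular helper genes held 4 members among 148 peaks (2.70%), near Icos, Maf, Tox and Tox2, and 9 peaks that kept rising. The intergenic member 307 kb from Maf, a transcription factor of these cells, had means of 12.2, 15.2, 19.7 and 24.2 rppm in A, B, C and D, and edgeR with the block called it higher in C than in B (adjusted p = 0.0289). Proximal T cell receptor signalling held 4 among 263 (1.52%), near Fyn, a kinase that acts at the receptor, Plcg1, a phospholipase, Prkcq, protein kinase C theta, and Sos1, an exchange factor for Ras. The member in intron 2 of Fyn had 13.4 and 11.4 rppm in A, 20.3, 13.0 and 16.5 in B, 22.8, 18.2 and 19.0 in C, and 24.6, 18.8 and 22.8 in D. B overlapped A there through mouse 2. The member in intron 1 of Sos1 had B minus A and C minus B differences of 0.51 and 0.01, and edgeR with the block called it higher in B (adjusted p = 0.0479).

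Genes induced by T cell receptor signals held 2 members among 158 peaks (1.27%), those of Tnfrsf4 and Nr4a3, and 9 peaks that kept rising. Cytokine receptors held 2 among 221 (0.905%), near Il12rb2 and Il6st. Core T cell identity genes held 1 among 318 (0.314%), near Runx1. Naive homing and quiescence genes held 1 among 464 (0.216%), at S1pr1, the receptor for exit from lymphoid tissue, with means of 8.54, 12.5, 13.3 and 13.2 rppm in A, B, C and D. No member lay near genes of the type I interferon response (71 peaks), the Ly6 cluster (42), myeloid and dendritic cells (38), effector and memory cells (103), or the factor families AP-1, NFAT and NF-kB (146). At the 1.39% of all peaks, lists of these sizes would hold few members or none, so little follows from their absence. The effector, factor family and myeloid lists held 6, 4 and 1 peaks that kept rising. The median C minus B difference of the Ly6 cluster peaks was -0.13.

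Lists of other cell types held 3 members. The B cell list had 2 among 30 peaks (6.67%, the highest share of the 15 lists, against 1.39% of all peaks), in intron 4 of Btk, with means of 9.48, 10.9, 14.2 and 15.8 rppm in A, B, C and D, and at the start site of Cd74, with 6.01, 7.35, 8.96 and 11.0. The CD8 T and NK cell list had 1 among 35 (2.86%), in intron 4 of Cd8a, with 4.89, 5.80, 7.87 and 8.39. None of the 3 was called by any tool in B against A or in C against B. The summed peaks of the B cell markers, given above, overlapped between all 4 populations, and those of the CD8 T and NK cell markers spanned 431–455 rppm for A, 423–443 for B, 404–450 for C and 367–472 for D.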

How the data were processed

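The authors deposited 1 table of 45508 peaks with, per library, a value in RPM (rppm, per the file headers, reads scaled to a common total), a position, an annotation and a nearest gene. The submitters' processing notes name Bowtie, MACS2 and mm10, with no versions or roles. The denominator, the read filters and whether libraries were pooled to call peaks are not given in the sources used here. Every value was a whole multiple of the value of 1 read (100% within 0.001 rppm), so whole read numbers were recovered. Reads carry no molecular identifiers. All peaks reach 1 rppm in at least 3 libraries.

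Members were found on population means with a pseudocount of 1, as given in the report. The members, gene lists and rules were chosen with earlier results of these data known. The main test was limma's (version 3.58.1, R 4.3.3) with values as log2(rppm + 1), all 11 libraries in 1 model with a variance trend, two-sided, Benjamini-Hochberg adjusted over all peaks, at 0.05. Log2 differences refer to rppm + 1 and understate ratios at low peaks. Values with the mouse as a replicate block are printed beside these, since the prefix of each library's title was read as its mouse. The titles do not say what the prefix stands for. Deviations from population means correlated at 0.183 to 0.556 (median 0.357) in the 15 pairs of libraries from 1 mouse and at -0.433 to 0.203 (median -0.206) in the 30 pairs from different mice, the negative values being partly forced by the centring. Alternatives were edgeR 4.0.16 (quasi-likelihood) and DESeq2 1.42.0 on the recovered reads, other pseudocounts, scalings and filters, and leaving out each library. EdgeR with the mouse block, and the rule with 1 mouse left out, were added after seeing the data. The scripts were tested on simulated counts.

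Named peaks were the 10 with the largest C over A values, 1 per gene and only genes with proper symbols, members called at B or at C with a small other step (none, since limma without the block called none), up to 4 genes per list with a C mean of at least 5 rppm, genes with 5 or more members, and the peaks at each threshold. Peaks called with the block, members of genes with several members, and the low or start-site peaks of list genes were named after their values were seen. Entrez identifiers of 45447 peaks (99.9%) matched the RefSeq gene table of GRCm38.p6. Of 12179 promoter peaks matched, 8462 (69.5%) had a stated distance within 100 bases of that table's start site. Sequence composition of peaks outside promoters was not analysed here. Some items are not reported here.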

Additional observations from a re-analysis of the deposited data

How the results depend on the processing

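With limma without the replicate block, 0 members were called in B against A and 0 in C against B. The count for B against A was 2 with the replicate block, 3 with DESeq2 and 19 with edgeR and the replicate block. The shares over all peaks tested were 0.0461%, 0.0241% and 0.18%. The count was 0 in the other 20 alternatives, which include edgeR without the block and leaving out each library. The count for C against B was 15 with the replicate block, 5 with edgeR, 8 with DESeq2 and 108 with edgeR and the replicate block. The shares over all peaks were 0.156%, 0.127%, 0.165% and 1.3%. Leaving out each library in turn gave 0 to 2, with 2 (Tnfrsf4 and Gm29687) without the shallowest library, D of mouse 1. The cause was not tested. The tests of unequal steps gave 0 in all 23 alternatives, in either direction.

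Which peaks are members depends on the settings. The rule took 127 peaks with a pseudocount of 5 (95 of them members) and 834 with 0.25 (581 members). It took 574 to 1195 when 1 library of A, C or D was left out, with 1195 without A of mouse 1 (540 members), 967 without C of mouse 2 (537 members), and 1111 without mouse 1 (397 members). Without A of mouse 1, or without mouse 1, the rule rests on 1 library of A. The median B minus A difference over members was 0.19 with a pseudocount of 5, which shrinks all differences by construction, against 0.34. It moved by less than the spread between libraries in the other 16 alternatives, as did the median C minus B difference in all 17. Some of these could not move, since the members were held fixed. Leaving out a library of C or D cannot change the B minus A median. Likewise, leaving out a library of A or D cannot change the C minus B median. Depth limits these results most in D of mouse 1, where 3 rppm is 7.79 reads. A mean of at least 5 rppm was held by 351 members (55.5%), and the others rest on few reads in the shallow libraries.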
